A study of Mus musculus with 7 samples.

Results

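miR-137, miR-138, miR-153 and miR-218 are miRNAs of neurons with known roles at synapses. The guide products mmu-miR-137, mmu-miR-138, mmu-miR-153 and mmu-miR-218, the strands of each hairpin that are mainly loaded into the silencing complex, were selected by name. They are 4 of 756 mature miRNA sequences, and they lie at 6 of 806 miRNA loci. The data are 7 small RNA libraries of hippocampi, pooled over mice, from adult C57BL/6 mice aged 3 to 5 months. NIPP1* mice carry the PP1-binding part of a nuclear inhibitor of protein phosphatase 1, fused to EGFP and driven in forebrain neurons through a CaMKIIalpha transactivator when doxycycline is fed, and controls were littermates. Trained mice explored unfamiliar objects in an object recognition task (NOR), and non-trained mice met the chamber without them. By the labels, library 1 is non-trained control, library 2 is non-trained NIPP1*, libraries 3, 4 and 5 are trained control (replicates 1, 2 and 3), and libraries 6 and 7 are trained NIPP1* (replicates 1 and 2). The transgene acts in forebrain neurons, whereas the libraries hold all cells of the hippocampus. In such bulk tissue, fewer cells of a type and less miRNA per cell cannot be told apart.

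The labels and the authors' deposited tables disagree on the trained libraries. Over 319 miRNAs, the trained control means of those tables were rebuilt by libraries 6 and 7 with a root mean square error of 0.01278%, against 15.57% for the labelled libraries 3, 4 and 5. The trained NIPP1* means were rebuilt by libraries 3, 4 and 5 with an error of 0.02513%, against 18.19% for libraries 6 and 7. The labels were followed here, and values under the tables' grouping are given too. For a difference between the 2 trained groups, that grouping keeps the size and turns the sign, which holds for every such difference of levels or ratios below. The split of libraries 3, 4 and 5 from libraries 6 and 7 is shared by both groupings, and only the genotype attached to each side changes. The transgene is not seen in small RNA reads, so genotypes were not checked.

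A miRNA pairs with its target messenger RNAs mainly through its seed, bases 2 to 8 from the 5′ end, and lowers their translation or stability. In neurons miR-137 is known for targets in the presynaptic terminal and lies in a locus linked to schizophrenia risk. miR-138 is found in dendrites, where it limits the size of dendritic spines through the depalmitoylating enzyme Lypla1 (APT1). miR-153 represses mRNAs of vesicle release, among them Snap25 and the alpha-synuclein mRNA. miR-218 acts in motor and hippocampal neurons and is encoded inside the Slit genes for axon guidance proteins.

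The mature sequences of the members, from RefSeq with GRCm38.p6, are shown because their seeds determine which targets they could share. Capitals mark bases 2 to 8.
mmu-miR-137: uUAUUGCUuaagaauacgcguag
mmu-miR-138: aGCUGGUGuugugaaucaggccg
mmu-miR-153: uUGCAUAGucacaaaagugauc
mmu-miR-218: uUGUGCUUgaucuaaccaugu

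The 4 seeds differ from each other, and 0 of the other sequences carried any of them over bases 2 to 8. Over bases 2 to 7 alone, 1 sequence, mmu-miR-448-3p, shared the seed of mmu-miR-153, and 0 shared that of the other members. The 4 miRNAs are thus grouped by their role and not by sequence. The mature strands are 23, 23, 22 and 21 bases long in the order above, and 56.5% of the bases of mmu-miR-138 are G or C, against 34.8%, 36.4% and 38.1% in mmu-miR-137, mmu-miR-153 and mmu-miR-218.

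Positions are given on mm9, on the plus strand, with GENCODE M1 (the annotation for this build) for the surrounding genes. mmu-miR-137 lies at chr3:118136819-118136841, in no annotated gene other than its own hairpin. mmu-miR-138 has a copy at chr9:122592016-122592038 (hairpin Mir138-1) and another at chr8:96848212-96848234 (Mir138-2), both likewise outside other genes. mmu-miR-153 lies at chr12:118489333-118489354 in an intron of Ptprn2, which encodes a protein of dense core vesicles. mmu-miR-218 has copies at chr5:48615205-48615225 (Mir218-1) and chr11:35430342-35430362 (Mir218-2), in introns of Slit2 and Slit3, on the strand of the host gene. Both copies of a miRNA give the same mature sequence, so the mature strand cannot be assigned to 1 hairpin.

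Levels are reads per 1000000 miRNA reads (RPM), the percentages deposited by the authors multiplied to that scale, with the copies of 1 sequence averaged. Libraries held between 7285306 and 10017052 miRNA reads. mmu-miR-137 was the most abundant member, at a mean of 10799 ± 1477 RPM (SD, n = 7 libraries), and ranked 20 among all sequences by mean level. mmu-miR-138 followed at 6083 ± 797 RPM (rank 29) and mmu-miR-218 at 4468 ± 651 RPM (rank 35). mmu-miR-153 was far lower, at 159 ± 31.2 RPM (rank 164), with at least 1034 reads in each library. Together they made up between 1.72% and 2.50% of the miRNA reads.

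The order mmu-miR-137, mmu-miR-138, mmu-miR-218, mmu-miR-153 held in 7 of 7 libraries. mmu-miR-137 was 1.61 to 2.01 times as abundant as mmu-miR-138, and their ranges over the libraries did not overlap. mmu-miR-138 was 1.22 to 1.45 times as abundant as mmu-miR-218 within a library, although their ranges across libraries overlapped. mmu-miR-218 was 19.7 to 35.6 times as abundant as mmu-miR-153. Ligation and amplification differ between sequences, so such ratios between miRNAs are of reads and not of molecules.

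**Figure D1:**
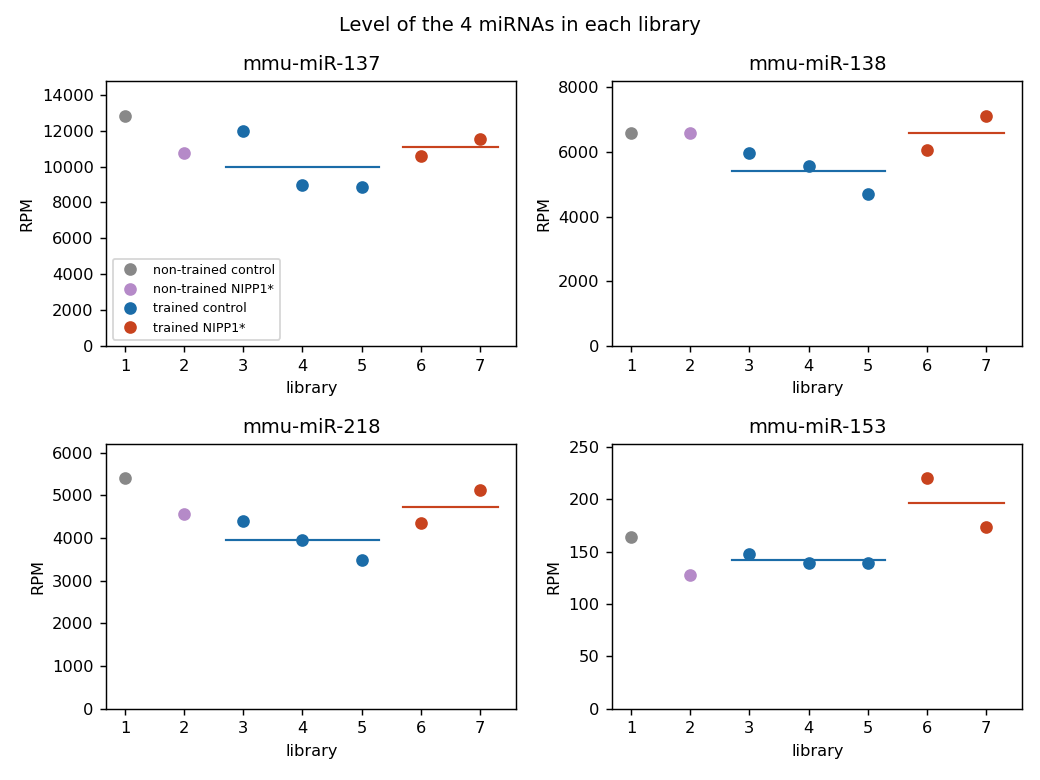
Level in RPM (y axis, from 0) of each member in libraries 1 to 7 (x axis), with 1 point per library coloured by labelled group and a line at the mean of the 3 trained control and of the 2 trained NIPP1* libraries. mmu-miR-138 and mmu-miR-153 were higher in both trained NIPP1* libraries than in any trained control library, while the groups overlapped for mmu-miR-137 and mmu-miR-218.

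In the non-trained libraries, mmu-miR-137 was at 12840 RPM in the control and 10750 RPM in the NIPP1* library. The trained control libraries had 11990, 8991 and 8884 RPM, and the trained NIPP1* libraries had 10610 and 11530 RPM. mmu-miR-137 was highest in the non-trained control and lowest in trained control replicates 2 and 3, with the first trained control replicate above both trained NIPP1* libraries. mmu-miR-138 had 6576 RPM in the non-trained control and 6598 RPM in the non-trained NIPP1* library. Its trained control libraries had 5958, 5579 and 4689 RPM, and its trained NIPP1* libraries 6056 and 7127 RPM. The 3 lowest libraries of mmu-miR-138, a miRNA of dendrites, were thus the trained controls.

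For mmu-miR-218 the non-trained control had 5402 RPM and the non-trained NIPP1* library 4560 RPM. The trained controls had 4392, 3957 and 3496 RPM, and the trained NIPP1* libraries 4343 and 5129 RPM. The first trained NIPP1* library lay just below the highest trained control, so these groups overlapped. mmu-miR-153 had 163.8 RPM in the non-trained control and 128.1 RPM in the non-trained NIPP1* library. It had 147.3, 139.4 and 138.9 RPM in the trained controls and 220.0 and 173.4 RPM in the trained NIPP1* libraries. The trained controls were close together for mmu-miR-153 (141.9 ± 4.71 RPM, SD, n = 3), whereas the 2 trained NIPP1* libraries lay above every other library.

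Across the 7 libraries the SD of log2(RPM + 0.5) was 0.20 for mmu-miR-137, 0.20 for mmu-miR-138, 0.21 for mmu-miR-218 and 0.26 for mmu-miR-153. The median over the 319 miRNAs that averaged 100 reads or more was 0.19. The members other than mmu-miR-153 thus varied about as much as a typical miRNA, and 76.2% of those miRNAs had a smaller SD than mmu-miR-153.

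The effect of NIPP1* without training rests on 1 library per group, so it has no replicate check and is given as a ratio with no test. The log2 ratio of the NIPP1* to the control library was -0.26 for mmu-miR-137 (95% interval -0.27 to -0.24, counting error only). It was -0.24 for mmu-miR-218 (-0.26 to -0.22) and -0.35 for mmu-miR-153 (-0.47 to -0.24), while mmu-miR-138 was at 0.00 (-0.01 to 0.02). Among the 322 miRNAs that averaged 100 reads or more in these libraries, 3 (0.932%) had a log2 ratio of 1 or more in size, and 0 of the members did. The middle of all miRNAs, from the 5th to the 95th percentile, ran from -0.42 to 0.38, which holds the ratios of the 4 members. Summed markers of other cell types also differed between these libraries. From the control to the NIPP1* library they went from 4808 to 3845 RPM for oligodendrocytes, from 237 to 161 RPM for the miR-200 family, from 591 to 796 RPM for choroid plexus and from 116 to 85.0 RPM for red blood cells. Sums went from 207845 to 196304 RPM for neurons, from 850 to 947 RPM for leukocytes and microglia, from 14824 to 14791 RPM for blood vessels and from 37.0 to 40.8 RPM for hindbrain. Their part in the ratios of the members was not tested.

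The effect of training in controls was asked by comparing the 3 trained control libraries with the non-trained control, using limma across the 476 miRNAs that averaged 10 reads or more. All 4 members were lower in the trained group, and none passed the test. The log2 fold change was -0.38 (95% interval -0.83 to 0.07) for mmu-miR-137 and -0.29 (-0.70 to 0.12) for mmu-miR-138. It was -0.46 ± 0.17 (SE) for mmu-miR-218, encoded in Slit2 and Slit3 (interval -0.87 to -0.05, limma adjusted p = 0.666), and -0.21 (-0.68 to 0.26) for mmu-miR-153. limma called 0 of 476 miRNAs (0%) at an adjusted p under 0.05, edgeR 0 and DESeq2 1, while 28 (5.88%) had an unadjusted limma p under 0.05, among them mmu-miR-218. The median over all miRNAs tested was -0.09. The non-trained control is 1 library, so its spread was taken from the trained groups. The value of mmu-miR-138 was -0.19 without trained control replicate 3 and also in DESeq2. That of mmu-miR-153 was -0.12 with TMM scaling, -0.12 in edgeR and -0.11 in DESeq2. Under the grouping of the tables the values were -0.22, -0.00, -0.19 and 0.25 for mmu-miR-137, mmu-miR-138, mmu-miR-218 and mmu-miR-153, so mmu-miR-153 changed sign.

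In NIPP1* mice, mmu-miR-153 was the member that differed most between trained and non-trained libraries. Its log2 fold change was 0.61 ± 0.21 (SE, interval 0.11 to 1.11, limma adjusted p = 0.962), and it did not pass the test. mmu-miR-137, mmu-miR-138 and mmu-miR-218 had log2 fold changes of 0.04 (-0.43 to 0.52), -0.01 (-0.44 to 0.43) and 0.05 (-0.38 to 0.48), and with TMM scaling, edgeR and DESeq2 these lay between 0.016 and 0.094. The intervals of these more abundant members thus allow a change of up to about 0.5 in either direction on the log2 scale. Of all miRNAs, limma called 0, edgeR 0 and DESeq2 2, and 21 (4.41%) had an unadjusted limma p under 0.05, among them mmu-miR-153 and no other member. With the grouping of the tables, mmu-miR-153 was at 0.15 (adjusted p = 0.958), and mmu-miR-137, mmu-miR-138 and mmu-miR-218 were at -0.13, -0.29 and -0.21.

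Trained NIPP1* and trained control libraries are the groups with replicates on both sides. All 4 members were higher in the trained NIPP1* libraries, and none passed the test. The log2 fold change was 0.46 ± 0.16 (SE) for mmu-miR-153 (interval 0.09 to 0.83, limma adjusted p = 0.639). For mmu-miR-138 and mmu-miR-218 it was 0.29 (-0.04 to 0.61) and 0.26 (-0.06 to 0.59), both with an adjusted p of 0.659 in limma, and for mmu-miR-137 it was 0.17 (-0.19 to 0.52). The libraries of the 2 groups did not overlap for mmu-miR-138 and mmu-miR-153, as was the case for 126 of 476 miRNAs (26.5%). limma called 0 miRNAs here, edgeR 0 and DESeq2 1, and 34 (7.14%) had an unadjusted limma p under 0.05, among the members mmu-miR-153 alone. Leaving out trained NIPP1* replicate 1 lowered the value of mmu-miR-153 to 0.29. Leaving out trained NIPP1* replicate 2 gave 0.17 for mmu-miR-138, 0.14 for mmu-miR-218 and 0.11 for mmu-miR-137. The value of mmu-miR-138 was 0.19 without trained control replicate 3, and that of mmu-miR-137 was 0.31, 0.10 and 0.091 without trained control replicates 1, 2 and 3. mmu-miR-137 was at 0.090 with TMM scaling, 0.080 in edgeR and 0.10 in DESeq2.

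Some marker miRNAs of other cell types moved with this split. The summed level of both oligodendrocyte markers on the list (miR-219-5p and miR-338-3p) was 4123 to 4375 RPM in the trained NIPP1* libraries and 2766 to 3299 RPM in the trained controls. Over all libraries miR-219-5p had only 9.09 to 26.7 RPM, so this sum is nearly all miR-338-3p. The 2 red blood cell markers found of 3 listed (miR-144 and miR-451) summed to 132 to 251 RPM against 61.9 to 126 RPM. The 3 markers of neurons (miR-124, miR-128 and miR-9), the cells in which the members are best known, summed to 190930 to 192076 RPM in trained NIPP1* and 181433 to 205446 RPM in trained control libraries. Of these, miR-9 averaged 128329 RPM over all libraries, miR-128 61486 RPM and miR-124 4058 RPM. The groups overlapped also for choroid plexus (481 to 872 against 400 to 1154 RPM, with miR-211 at 0 in 1 library), for leukocytes and microglia (865 to 991 against 886 to 897 RPM), and for blood vessels (16283 to 17204 against 15486 to 18452 RPM). They overlapped as well for the miR-200 family (116 to 356 against 112 to 314 RPM) and for 3 of 4 hindbrain markers (31.5 to 33.4 against 26.6 to 48.0 RPM, with miR-196b at 0 in several libraries). Against the non-trained libraries, other lists moved as well. The non-trained control had 4808 RPM of oligodendrocyte and 207845 RPM of neuron markers, above each trained control library, and 14824 RPM of blood vessel and 850 RPM of leukocyte and microglia markers, below each of them. The non-trained NIPP1* library had 3845 RPM of oligodendrocyte, 14791 RPM of blood vessel and 85.0 RPM of red blood cell markers, below both trained NIPP1* libraries. It had 196304 RPM of neuron and 40.8 RPM of hindbrain markers, above both. The part of these cell types in the values of the members was not tested.

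The interaction of training and NIPP1*, that is the training effect in NIPP1* minus that in control mice, was positive for all 4 members. It was 0.81 ± 0.29 (SE) for mmu-miR-153 (interval 0.13 to 1.5, limma adjusted p = 0.577), the miRNA of vesicle release genes. It was 0.51 (-0.09 to 1.10) for mmu-miR-218, 0.42 (-0.23 to 1.07) for mmu-miR-137 and 0.28 (-0.32 to 0.89) for mmu-miR-138, and no member passed. limma and edgeR called 0 miRNAs and DESeq2 2, with 37 (7.77%) at an unadjusted limma p under 0.05, of the members again mmu-miR-153 alone. Without trained NIPP1* replicate 2 or trained control replicate 3, mmu-miR-138 was at 0.17 or 0.18. Under the grouping of the tables the difference was -0.11 for mmu-miR-153, -0.02 for mmu-miR-218, 0.09 for mmu-miR-137 and -0.29 for mmu-miR-138.

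Averaged over both genotypes, trained against non-trained gave -0.17 (-0.50 to 0.16) for mmu-miR-137, -0.15 (-0.45 to 0.15) for mmu-miR-138 and -0.20 (-0.50 to 0.09) for mmu-miR-218. mmu-miR-153 stood at 0.20 (-0.14 to 0.54). Without trained NIPP1* replicate 1, mmu-miR-138 was at -0.089 and mmu-miR-153 at 0.11, and mmu-miR-138 was at -0.098 without trained control replicate 3. With TMM scaling, mmu-miR-137 was at -0.11, mmu-miR-138 at -0.090 and mmu-miR-218 at -0.15. In DESeq2 these were -0.097, -0.076 and -0.13. The limma values from all libraries are the same under both groupings. limma called 0 miRNAs, edgeR 0 and DESeq2 1, with 16 (3.36%) at an unadjusted limma p under 0.05 and 0 members among them. These comparisons share libraries, so they are not independent of each other.

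**Figure D2:**
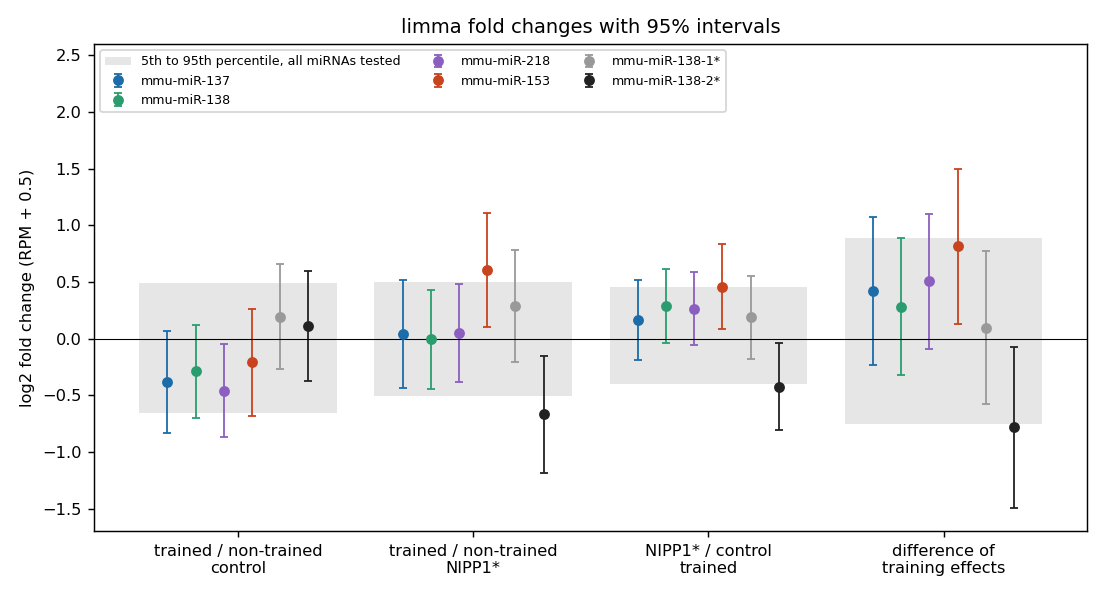
log2 fold change on the RPM + 0.5 scale (y axis) for 4 comparisons (x axis), with points for the members and the opposite arms of miR-138, bars for the 95% interval of limma, and grey boxes from the 5th to the 95th percentile of the 476 miRNAs tested. The value of mmu-miR-153 was above 0 in the 3 comparisons that include trained NIPP1* libraries, while that of mmu-miR-138-2* was below 0.

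The other strand of a hairpin, marked with a star, is usually degraded, and its level reports on a single hairpin where the guide has several copies. The opposite arms of miR-137, miR-138 and miR-218 were measured, and that of miR-153 was not analysed here. The 2 arms of miR-138 are printed, from RefSeq with GRCm38.p6 and with bases 2 to 8 in capitals, because they tell its hairpins apart.
mmu-miR-138-1*: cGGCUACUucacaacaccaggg
mmu-miR-138-2*: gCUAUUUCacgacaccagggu

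The opposite arms were at a small share of the guides. mmu-miR-138-2* had a mean of 61.7 ± 10.8 RPM and mmu-miR-138-1* of 47.6 ± 5.22 RPM (SD, n = 7). mmu-miR-137* was at 15.6 ± 2.73 RPM, mmu-miR-218-2* at 8.32 ± 2.43 RPM and mmu-miR-218-1* at 1.28 ± 0.441 RPM. The guide exceeded the opposite arm by 444 to 1004 times for miR-137, by 106 to 160 times for mmu-miR-138-1* and by 76.8 to 137 times for mmu-miR-138-2*. For miR-218 the guide exceeded mmu-miR-218-2* by 409 to 791 times, and mmu-miR-218-1*, which had only 4 to 18 reads per library, by 2355 to 6855 times. Relative to the guide, the opposite arms were thus most frequent for miR-138.

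mmu-miR-137* did not follow its guide. It had 14.96 RPM in the non-trained control, 15.98 in the non-trained NIPP1* library, 14.51, 20.23 and 17.40 in the trained controls, and 14.41 and 11.48 in the trained NIPP1* libraries. The highest values of mmu-miR-137* were in the 2 libraries where mmu-miR-137 was lowest. The log2 ratio of guide to opposite arm was 9.16 ± 0.47 (SD, n = 3) in trained control and 9.75 ± 0.32 (n = 2) in trained NIPP1* libraries, a difference of 0.59 that an exact two-sided permutation test gave p = 0.3. With 3 against 2 libraries, such a test cannot go below 0.1.

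**Figure D3:**
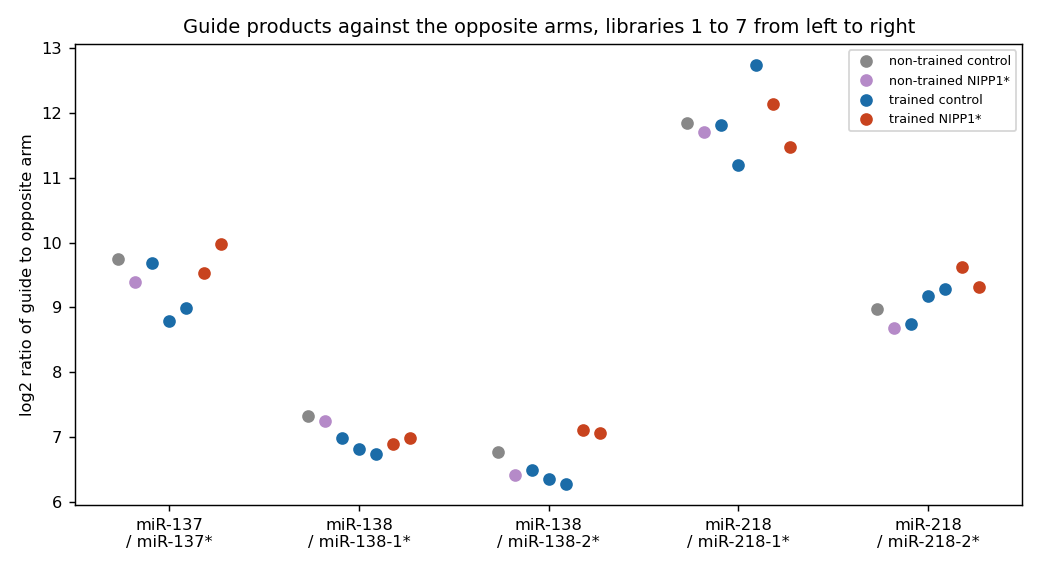
log2 ratio of the guide to the opposite arm (y axis) for 5 pairs of products (x axis), with 1 point per library from library 1 at the left to library 7 at the right of each pair, coloured by labelled group. The ratios of mmu-miR-138 to mmu-miR-138-2* and of mmu-miR-218 to mmu-miR-218-2* were higher in both trained NIPP1* libraries than in the other 5, and the ratios of mmu-miR-218-1* spread widely.

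The opposite arms of the miR-138 hairpins moved apart between libraries. mmu-miR-138-1* had 41.1 RPM in the non-trained control, 43.7 in the non-trained NIPP1* library, 47.2, 49.8 and 44.1 in the trained controls, and 50.9 and 56.4 in the trained NIPP1* libraries. mmu-miR-138-2* had 60.4 and 77.6 RPM in the non-trained control and NIPP1* libraries, 66.7, 68.7 and 61.0 in the trained controls, and 44.2 and 53.6 in the trained NIPP1* libraries. The arm of Mir138-2 was therefore the higher one in libraries 1 to 5, and the arm of Mir138-1 in libraries 6 and 7.

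In logarithms, the ratio of mmu-miR-138-1* to mmu-miR-138-2* was -0.56 and -0.83 in the non-trained control and NIPP1* libraries. It was -0.48 ± 0.02 (SD, n = 3) in trained control and 0.14 ± 0.09 (n = 2) in trained NIPP1* libraries. The difference of 0.62 had an exact two-sided permutation p of 0.1, the smallest that 3 against 2 libraries allow, and 0.3 after Benjamini-Hochberg adjustment over 9 ratios. The log2 ratio of mmu-miR-138 to mmu-miR-138-2* differed by 0.71 (exact p = 0.1, adjusted 0.3), and that to mmu-miR-138-1* by 0.10 (exact p = 0.4). The log2 ratio of mmu-miR-218 to mmu-miR-218-2* differed by 0.40 in the same direction (exact p = 0.2, adjusted 0.36), also without overlap of the trained groups. For background, 102 pairs were taken whose opposite arm has the guide's name plus a star, which leaves out those of miR-138 and miR-218. In these, on the RPM + 0.5 scale, the trained groups did not overlap for 27 (26.5%), and the median size of the difference was 0.18. They pair a guide with an opposite arm, so they are no background for the ratio of mmu-miR-138-1* to mmu-miR-138-2*. Under the grouping of the tables, the difference between the arms of miR-138 was -0.62.

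In limma, mmu-miR-138-2* had a log2 fold change of -0.42 between trained NIPP1* and trained control (interval -0.81 to -0.04, adjusted p = 0.639) and of -0.67 between trained and non-trained NIPP1* (-1.18 to -0.15, adjusted p = 0.962). mmu-miR-138-1* had 0.19 (-0.18 to 0.55) and 0.29 (-0.20 to 0.78) in the same comparisons. The first was at 0.11 with TMM scaling or without trained NIPP1* replicate 2, and at 0.12 in edgeR. mmu-miR-138-2* had an unadjusted limma p under 0.05 in both comparisons and in the interaction (-0.78, -1.49 to -0.07, and 0.064 under the tables' grouping), and neither arm passed the test. The tables' grouping gave 0.42 and -0.24 for mmu-miR-138-2* and -0.19 and 0.10 for mmu-miR-138-1*. Between the non-trained libraries, the log2 ratio of NIPP1* to control was 0.36 for mmu-miR-138-2* (95% interval 0.19 to 0.53, counting error only) and 0.09 for mmu-miR-138-1* (-0.12 to 0.31).

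The guide loci of the 2 hairpins also did not carry equal values in the deposited files. The hairpins are shown from the base before the mature strand to base 26, counted from the first mature base, from RefSeq with GRCm38.p6, because they show where the copies stop being identical. Capitals mark bases that differ between the 2 hairpins of a miRNA.
Mir138-1: cagcugguguugugaaucaggccgUUg
Mir138-2: cagcugguguugugaaucaggccgACg
Mir218-1: GuugugcuugaucuaaccaugugCuUg
Mir218-2: UuugugcuugaucuaaccaugugGuGg

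The mature strands end at base 23 in miR-138 and base 21 in miR-218, and the first differing bases after them are base 24 and base 23. The paper counts reads that map uniquely to miRNAs, without saying how reads that match both copies were assigned to a locus. The deposited percentages summed to 170% to 174% over the loci of a library, and to 100% once copies were averaged. Such reads were thus in the main counted at each copy and not split. These values need not measure the output of each hairpin. At Mir138-1 the deposited value was 0.813 to 0.907 times that at Mir138-2. At Mir218-1 it was 0.821 to 0.893 times that at Mir218-2. The log2 ratio of Mir138-1 to Mir138-2 was -0.23 ± 0.06 (SD, n = 3) in trained control and -0.16 ± 0.02 (n = 2) in trained NIPP1* libraries (exact permutation p = 0.2, adjusted 0.36). That of Mir218-1 to Mir218-2 was -0.26 ± 0.02 and -0.18 ± 0.02 (exact permutation p = 0.1, the smallest possible, adjusted 0.3). The ratios of both miRNAs were nearest to equality in libraries 6 and 7.

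Among 23 miRNAs averaging 100 reads or more that have exactly 2 loci, 14 had loci that differed by more than 0.1%. The trained groups did not overlap in this ratio for 6 of these 14, mmu-miR-138 and mmu-miR-218 included. The median size of the difference in log2 ratio between the trained groups was 0.005 over these 14. It was 0.07 for mmu-miR-138 and 0.08 for mmu-miR-218, and the highest was 0.25. Several of the 14 had almost equal loci, so their ratio could hardly differ between groups, which lowers this median. Among the other miRNAs whose loci differed on average by more than 0.22 in log2, the sizes were 0.25, 0.12, 0.014 and 0.005.

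**Figure D4:**
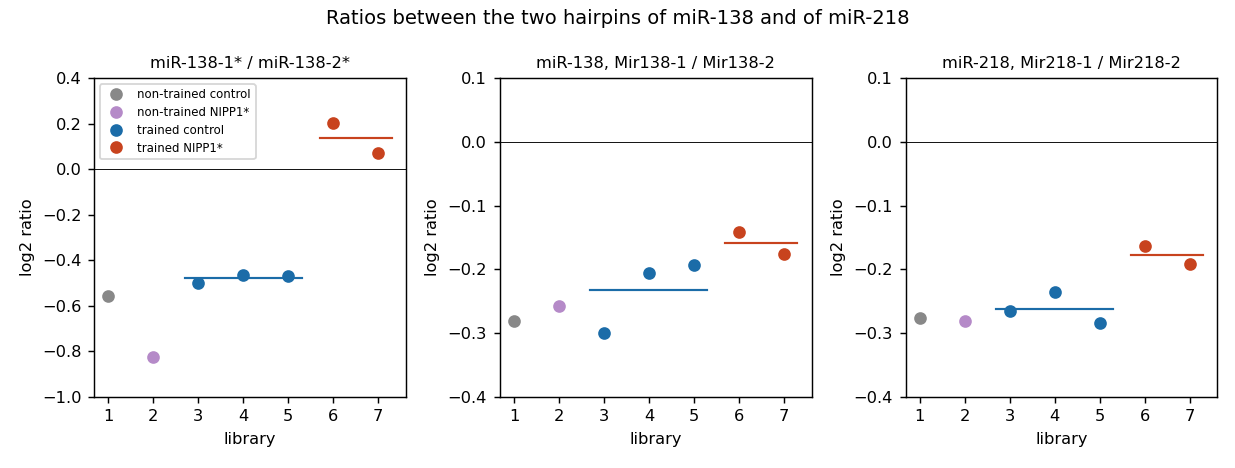
log2 ratio between the 2 hairpins (y axis) by library (x axis) for the opposite arms of miR-138 and for the guide loci of miR-138 and miR-218, with points coloured by labelled group and lines at the means of the trained groups. The ratio of mmu-miR-138-1* to mmu-miR-138-2* was above 0 in libraries 6 and 7 and below 0 in libraries 1 to 5.

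Over the 7 libraries, mmu-miR-218 varied with mmu-miR-137 and with mmu-miR-138 by Pearson's r, which passed 0.05 after adjustment for these 2 of 6 pairs of members, while rho passed for none. The share of all pairs of miRNAs that would pass was not counted. Over all pairs of the 319 miRNAs averaging 100 reads or more, the 90th percentile of r was 0.72. Between mmu-miR-138 and mmu-miR-218, Pearson's r of log2(RPM + 0.5) was 0.93 (exact permutation p = 0.00298, 0.0179 adjusted over 6 pairs) and Spearman's rho 0.86 (exact p = 0.0238, adjusted 0.0714). Without the 2 libraries farthest from the median of mmu-miR-138, r was 0.84. Between mmu-miR-137 and mmu-miR-218, r was 0.89 (exact p = 0.0113, adjusted 0.0339) and rho 0.89 (exact p = 0.0123, adjusted 0.0714), with r at 0.68 when the 2 libraries farthest for mmu-miR-137 were left out.

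Between mmu-miR-137 and mmu-miR-138, r was 0.76 (exact p = 0.0399, adjusted 0.0798) and rho 0.61 (exact p = 0.167, adjusted 0.333). Pearson's r fell to 0.11 without libraries 4 and 5, the 2 farthest from the median of mmu-miR-137. Leaving out the farthest libraries narrows the range, which by itself can lower r here and in the other pairs. mmu-miR-153 had r of 0.31, 0.29 and 0.33 with mmu-miR-137, mmu-miR-138 and mmu-miR-218 (exact p between 0.473 and 0.503, adjusted 0.503), and rho of 0.36, 0.32 and 0.32 (exact p between 0.444 and 0.498, adjusted 0.498). Without the 2 farthest libraries these r were -0.18, -0.05 and 0.19. Levels are shares of 1 total and the libraries belong to different groups, so these relations describe the 7 libraries.

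The miRNAs whose levels ran most like a member were sought among those averaging 100 reads or more, by Pearson's r over the 7 libraries and with no test. For mmu-miR-137 they were mmu-miR-384-3p (r = 0.97, 244.7 to 412.8 RPM), mmu-miR-19a (0.97, 61.7 to 131 RPM) and mmu-miR-9 (0.96, 107500 to 149800 RPM), the last a miRNA of neurons and their precursors. For mmu-miR-138 they were mmu-miR-30a* (0.95), mmu-miR-154 (0.94) and mmu-miR-708* (0.94). For mmu-miR-218 they were mmu-miR-708* (0.98), mmu-miR-380-5p (0.96) and mmu-miR-30e (0.94), so mmu-miR-708* was near both. For mmu-miR-153 they were mmu-miR-379* (0.97), mmu-miR-322 (0.91) and mmu-miR-219-5p (0.89, 9.09 to 26.7 RPM), a miRNA of oligodendrocytes. Over all pairs of these 319 miRNAs, the median r was 0.05 and the 90th percentile 0.72.

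Other miRNAs with a known role at synapses or in dendrites were summarised from a list of 26, of which 25 were measured. The list is not separate from the cell type markers above, as it also holds miR-9, miR-124, miR-128, miR-219-5p and miR-223. In trained against non-trained control, 14 were higher and 11 lower with a median of 0.15 (log2), against -0.09 over all miRNAs tested, while the 4 members were all lower. In trained against non-trained NIPP1*, 10 were higher and 15 lower (median -0.10, all miRNAs -0.03). In trained NIPP1* against trained control, 10 were higher and 15 lower (median -0.05, all miRNAs 0.04), while the members were all higher. limma called 0 of the 25 in each of these comparisons, with 5, 1 and 3 at an unadjusted p under 0.05. These are 20%, 4% and 12% of the list, beside 5.88%, 4.41% and 7.14% of all miRNAs tested. Under the grouping of the tables, 15, 10 and 15 were higher and 10, 15 and 10 lower, with medians of 0.05, -0.06 and 0.05 and 2, 0 and 3 at an unadjusted limma p under 0.05.

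The list had a median of 0.02 over both genotypes (14 higher and 11 lower, all miRNAs -0.05) and of -0.21 for the difference of the training effects (9 higher and 16 lower, all miRNAs 0.03), with 0 called by limma in either. At an unadjusted p under 0.05 there were 2 (8%) and 5 (20%), beside 3.36% and 7.77% of all miRNAs. Under the grouping of the tables, the difference of the training effects was higher for 10 and lower for 15, with a median of -0.08 and 2 at an unadjusted limma p under 0.05. Between the non-trained libraries, 15 were higher and 10 lower in NIPP1* (median 0.11, all miRNAs 0.02). There 1 of the 25 (4%, beside 0.932% of all miRNAs) passed a log2 ratio of 1 in size, mmu-miR-34a, with 682.5 RPM in the control and 333.1 RPM in the NIPP1* library. The counts under the grouping of the tables were added after the data were seen.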

How the data were processed

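Small RNA libraries of pooled mouse hippocampus were sequenced together, and per the labels processed with CASAVA 1.7.0, Bowtie and bedtools. Inserts of 19 to 26 nt were mapped by the authors to NCBI37/mm9, and the value deposited for each mature locus is a percent of all miRNA reads in that library. The group means of the authors' deposited tables, a signal of reads divided by size factors, served only to check the groups and the join of names. Their fold changes and p-values were not used.

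Percentages were multiplied to RPM and copies of 1 sequence averaged. Of 756 sequences, 641 were joined to an id, and the others reached at most 1.12 RPM. Of the low values, 100% were whole reads within a tolerance of 0.1 reads, which gave 7285306 to 10017052 reads per library. For the main test, limma 3.58.1 with a trend was applied to log2(RPM + 0.5), which understates changes of low miRNAs, in 1 model of 4 groups, with a mean of at least 10 reads and Benjamini-Hochberg adjustment at 0.05. Whole-read tests were edgeR 4.0.16 and DESeq2 1.42.0. The limma script was tested on simulated data with larger changes than those of the members, which does not show that changes of their size would be found. Intervals are at 95%, and those from reads cover only counting error, as reads after PCR are not separate molecules. The study pooled mice of a group and does not say how those of a trained group were divided among its libraries, so p-values measure the spread between libraries, which may be technical. All libraries carry 1 run date and lane in their file headers.

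Named were the members, the other products of their hairpins, and the 3 miRNAs most like each member. Marker miRNAs, mmu-miR-448-3p (shared seed), mmu-miR-34a and mmu-miR-129-2-3p were named in addition, the last 2 after their values were seen. The members and lists were chosen with earlier results of these data known. Alternatives were other scalings, tests, pseudocounts of 0.1 and 1 RPM, filters, models, the grouping of the tables and leaving out each trained library. R 4.3.3, Python 3.11.15, numpy 2.4.6, scipy 1.17.1, pandas 2.3.3 and matplotlib 3.10.9 were used.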

Additional observations from a re-analysis of the deposited data

How the results depend on the processing

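The number of miRNAs that limma called was 0 in each of the 5 comparisons and stayed 0 under every alternative run except DESeq2, which called 1 in trained against non-trained control (mmu-miR-129-2-3p), 2 in trained against non-trained NIPP1*, 1 in trained NIPP1* against trained control, 1 over both genotypes and 2 for the difference of the training effects; no member was among them, and the cause was not tested. When the minimum mean was 10 reads and not 100, 14 of 479 miRNAs passed a log2 ratio of 1 between the non-trained libraries, in place of 3 of 322, and more miRNAs with few reads were then counted. For the members and both opposite arms of miR-138, 398 of 420 values kept their direction, 0 passed the threshold, and 22 changed sign. The lowest adjusted p was 0.0742, for mmu-miR-137 in trained against non-trained control (limma, -0.52) without trained control replicate 1. The grouping of the tables gave 15 of the changes of sign. In trained NIPP1* against trained control these were -0.17, -0.29, -0.46 and -0.26 for mmu-miR-137, mmu-miR-138, mmu-miR-153 and mmu-miR-218, and -0.19 and 0.42 for mmu-miR-138-1* and mmu-miR-138-2*. In trained against non-trained NIPP1* they were -0.13 for mmu-miR-137 and -0.21 for mmu-miR-218, and in trained against non-trained control 0.25 for mmu-miR-153 and -0.31 for mmu-miR-138-2*. For the difference of the training effects they were -0.29, -0.11, -0.019, -0.28 and 0.064 for mmu-miR-138, mmu-miR-153, mmu-miR-218, mmu-miR-138-1* and mmu-miR-138-2*. The near-zero change of mmu-miR-138 in trained against non-trained NIPP1* was 0.016 with TMM, 0.021 with edgeR and 0.038 with DESeq2, and ranged from -0.12 to 0.11 when 1 trained library was left out. In the same comparison mmu-miR-137 ranged from -0.019 to 0.10 and mmu-miR-218 from -0.070 to 0.17. Between the non-trained libraries the log2 ratio of mmu-miR-138 was -0.0012 with TMM. The log2 ratio of mmu-miR-138-1* to mmu-miR-138-2*, trained NIPP1* minus trained control, ranged from 0.55 to 0.68 without 1 library and was -0.62 under the grouping of the tables, both alternatives chosen after seeing the data. The mean levels of mmu-miR-138 and mmu-miR-218 were 6551 and 4841 RPM from 1 locus alone, Mir138-2 on chromosome 8 and Mir218-2 on chromosome 11. No paired analysis was possible because the replicate numbers were given in order within a group and the non-trained groups have 1 library each. The 1 library of each non-trained group limits what these comparisons can show.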
